A study of Mus musculus with 16 samples.

Results

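The 34 genes described here carry fatty acids through oxidation in mitochondria and peroxisomes, or are tied to it. They were taken by symbol from a count table of mouse cardiac fibroblasts, in which 34 of the 55414 gene identifiers are members, and 33 of them passed the filter on low counts that left 15285 genes for testing. They comprise the carnitine shuttle (5 genes), the acyl-CoA dehydrogenases (5), the hydratases, hydroxyacyl-CoA dehydrogenases and thiolase of mitochondria (5), the proteins that carry electrons to ubiquinone (3), the enzymes for double bonds (3), peroxisomal enzymes (4), acyl-CoA synthetases and thioesterases (5), and 4 regulators or coupled genes. Ppargc1a, the gene of a transcriptional coactivator of mitochondrial genes, is the member that did not pass, with 0 to 4 counts per library and 16 counts over all 16 libraries.

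Long-chain fatty acids are activated to acyl-CoA esters by synthetases and enter mitochondria as carnitine esters. There each round of beta-oxidation removes an acetyl unit through a dehydrogenase, a hydratase, a hydroxyacyl-CoA dehydrogenase and a thiolase, and passes electrons to ubiquinone through the electron transfer flavoprotein and to NAD. The adult heart muscle draws most of its energy from this pathway, much of which is under the nuclear receptor PPAR-alpha. TGF-beta, a growth factor, turns cardiac fibroblasts into contractile, matrix-producing myofibroblasts.

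RNA was sequenced from 4 groups of 4 libraries each. They were Cre adenovirus with TGF-beta, GFP adenovirus with TGF-beta, Cre adenovirus without TGF-beta and GFP adenovirus without TGF-beta, called here Cre or GFP cells with or without TGF-beta. Cre recombinase excises floxed DNA, and green fluorescent protein (GFP) was the control cargo. The titles call the Cre libraries a knockout of exon 2 of Has2 and the GFP libraries controls. Per the protocols in the labels, all groups were heart fibroblasts of Has2fl/fl mice (Has2 makes hyaluronan), used at passage 2, starved of serum for 24 h, given virus for 5 h and then stimulated for 48 h. The genotype label of every library instead reads wild type C57BL/6J. The protocol gives 20 ng/mL for bFGF and TGF-beta together, so it is not clear which groups received bFGF, and the age of the mice is not given. Each group held 1 library from each of 4 cell preparations, numbered here 1 to 4. Preparations 1 and 4 were male and 2 and 3 female, and the flasks were seeded at 1 heart each.

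Depth ranged from 17.9 to 48.7 M counts per library. Levels are in CPM, the counts of a gene per M counts of the library after TMM scaling, in the order of preparations 1 to 4. The targeted gene Has2 averaged 16.5 ± 6.32 CPM in Cre cells with TGF-beta and 16.8 ± 5.67 in GFP cells with TGF-beta. Without TGF-beta its level was 14.7 ± 1.38 in Cre cells and 18.7 ± 3.27 in GFP cells (SD, n = 4 each). Neither difference was called. Counts over the whole gene also take in reads outside exon 2, so they do not check the deletion, and a test of Cre against GFP is one of the viruses as labelled. The first principal component (53.9% of the variance) separated the TGF-beta libraries from the others. The second (19.6%) set preparation 4 apart. The 10 fibroblast markers summed to 14672 to 47208 CPM. Actc1, Pln and Nppa of heart muscle and Adipoq, Lep, Retn and Pck1 of fat cells were at 0 in all 16 libraries. Other markers of these cells were present. Of 12 heart muscle markers 3 passed the filter, Tnnt2 (49 to 682 counts per library), Tnni3 (1 to 29) and Mybpc3 (1 to 21). Of 9 fat cell markers 2 passed, Fabp4 (16 to 178) and Adrb3 (14 to 92).

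Per kilobase of exon, the members spanned more than 4 orders of magnitude if the untested Ppargc1a is counted. The length takes in all annotated exons of a gene. For Echs1 that is 8286 bases, against 1557 in its longest coding transcript, so the order of the members depends on this choice. On the scale of RPKM (CPM per kilobase of exon), averaged over all 16 libraries, Ucp2 (63.5) and Acadvl (53.6) led. Etfa (34.2), Hadha (27.1), Hsd17b4 (27.0), Acadl (26.7) and Etfb (26.7) followed at closely spaced levels, and 16 members averaged at least 10 RPKM. At the low end were Acsl1 (1.31), Ehhadh (1.24), Acot1 (1.11), Ppara (0.0945) and Ppargc1a (0.00483). Ppara rested on 0 to 34 counts per library.

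TGF-beta lowered 10 of the 33 members in GFP cells and the same 10 in Cre cells. These were Acot1, Ppara, Ucp2, Cpt1a, Pdk4, Acadsb, Acaa2, Cpt1c, Crat and Acadl. It raised Acot2 and Acadvl in both kinds of cell, Etfdh and Eci1 in GFP cells, and Acsl3 in Cre cells. The test was edgeR's quasi-likelihood test without the preparation as a block unless stated, and a called gene is one whose p, adjusted after Benjamini and Hochberg over all 15285 genes, was under 0.05. In GFP cells 4 members rose, 10 fell and 19 were not called, and 29.1% of all genes tested were called (13.8% higher and 15.3% lower). In Cre cells 3 rose, 10 fell and 20 were not called, against 30.3% of all genes (14% higher and 16.3% lower). DESeq2 called the same numbers of members in each direction. With 1 library left out at a time, the count of members lower in Cre cells dropped to 6 without Cre 2, and that of members higher to 0 without Cre with TGF-beta 2 and to 1 without Cre 1, Cre 2 or Cre with TGF-beta 1, where a number after a group is the preparation. In GFP cells the count lower dropped to 4 without GFP with TGF-beta 4 and to 5 without GFP 1 or GFP 2. The count higher dropped to 1 without GFP with TGF-beta 1 or 2 and to 2 without GFP with TGF-beta 3, GFP 1 or GFP 4.

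With the preparation as a block, 6 members rose and 16 fell in Cre cells, and 5 rose and 13 fell in GFP cells. The background was also larger, at 52.5% of all genes in Cre cells (25.2% higher and 27.3% lower) and 49.1% in GFP cells (22.6% and 26.5%). The median log2 difference of the 33 members was -0.13 in Cre cells and -0.11 in GFP cells, and that of all genes 0.02 and -0.02 in the same order. By preparation the members' median in Cre cells was -0.16, -0.18, -0.07 and -0.09, and in GFP cells it was -0.06, -0.14, -0.15 and -0.17. The median of all genes by preparation is not given here, so these values alone do not set the members apart. The members' median lay below 0 in all 8 pairs of libraries, which came from 4 preparations. With 1 library left out at a time, the fitted median ran from -0.23 (without Cre with TGF-beta 2) to -0.09 in Cre cells, where it was -0.22 without Cre 4, and from -0.21 (without GFP 4) to -0.08 in GFP cells. With the block it was -0.07 in Cre cells without preparation 2 and -0.08 without preparation 3. The levels of the 4 libraries with TGF-beta did not overlap those of the 4 without it for 10 members in Cre cells (1 above, 9 below), where 28.3% of all genes did so (12.5% above, 15.8% below), and for 11 in GFP cells (3 above, 8 below), where 29.8% did (15.1% and 14.7%). The sign was the same in all 4 preparations for 20 members in Cre cells, against 55.2% of all genes, and for 24 members in GFP cells, against 59.4%.

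**Figure D1:**
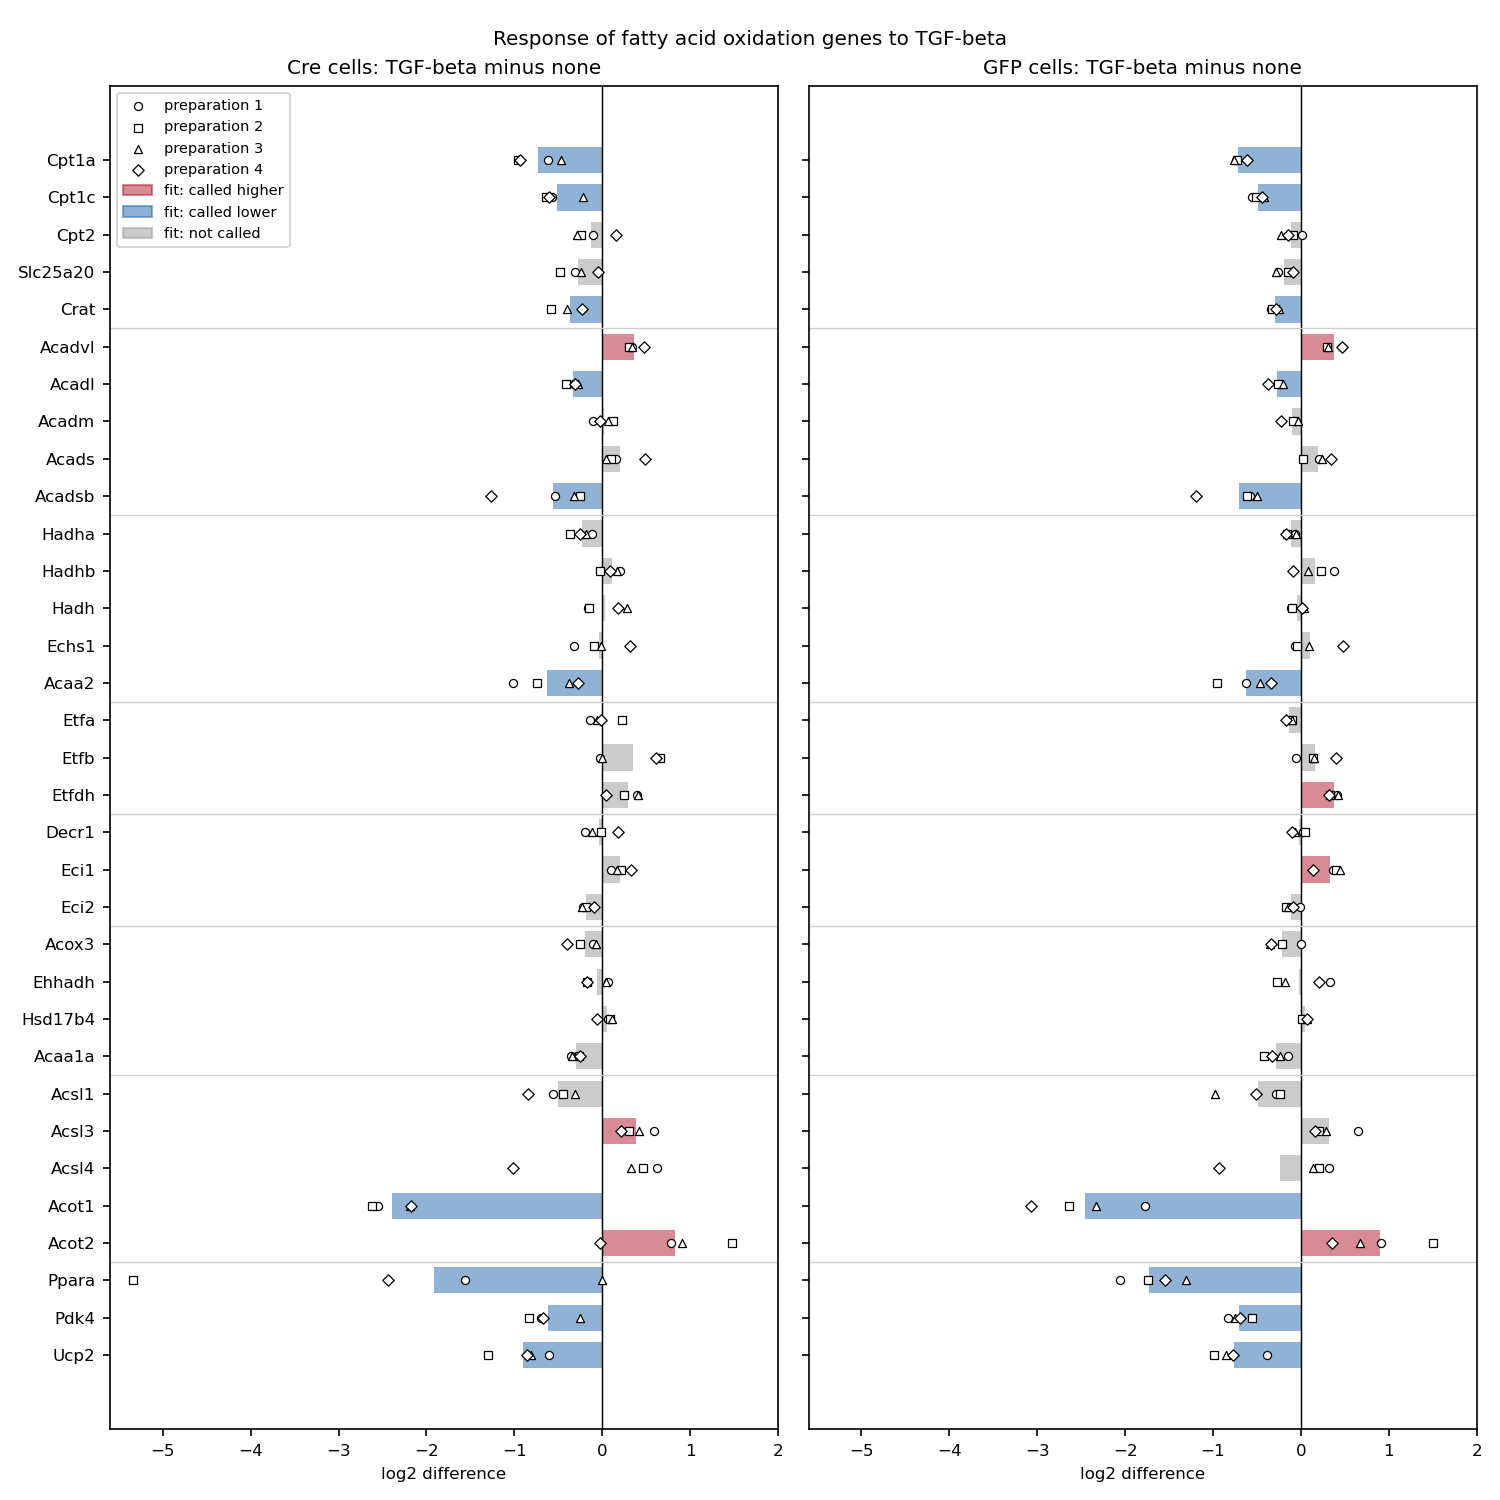
Log2 difference between TGF-beta and none for the 33 tested members, grouped by role, in Cre cells (left) and GFP cells (right). Bars are the fitted differences, coloured by call (red higher, blue lower, grey not called), and symbols are the 4 preparations. Acot1 lies near -2.4 and Acot2 above 0 in both panels, Acsl4 has preparation 4 on the other side of 0 from the rest, and the point of Ppara for preparation 2 in Cre cells rests on a library with 0 counts.

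Markers of other cells moved with TGF-beta as well. The 10 macrophage markers summed to 412 to 1026 CPM in Cre cells and 436 to 936 in GFP cells with TGF-beta, against 622 to 1642 in Cre cells and 721 to 1527 in GFP cells without it. The 8 endothelial markers summed to 13.5 to 20.8 CPM in Cre cells and 14.6 to 25.0 in GFP cells with TGF-beta, against 31.5 to 45.0 and 32.9 to 46.7 without it. The 12 heart muscle markers summed to 3.21 to 12.3 and 3.12 to 6.47 CPM with TGF-beta, against 8.21 to 23.7 and 5.32 to 16.8 without it, and the 9 fat cell markers to 2.69 to 3.43 and 2.30 to 2.58, against 3.12 to 5.75 and 2.79 to 5.79. On average Tnnt2 made up most of the heart muscle sum and Lyz2 most of the macrophage sum. Not every marker followed its list's sum. Among the fat cell markers that passed the filter, Fabp4 averaged lower with TGF-beta and Adrb3 higher. Adrb3 averaged 1.64 CPM in Cre cells and 1.37 in GFP cells with TGF-beta, against 1.16 and 1.09 without it. Tnni3 averaged higher with TGF-beta in Cre cells (0.456 against 0.36 CPM) and lower in GFP cells (0.225 against 0.546). Of the 10 fibroblast markers themselves, 8 fell in each kind of cell. The part of these markers in the members' differences was not tested, and in bulk RNA fewer cells of a type and less RNA per cell cannot be told apart.

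The carnitine shuttle fell at its entry step. Cpt1a, the outer-membrane palmitoyltransferase that sets the rate of mitochondrial uptake, stood at 89.8, 85.9, 95.3 and 54.4 CPM in Cre cells with TGF-beta, against 138, 167, 132 and 104 in Cre cells without it. The GFP cells held 94.8, 107, 95.9 and 74.0 CPM with TGF-beta, against 158, 177, 162 and 113 without it. All 4 libraries with TGF-beta lay below all 4 without it in each kind of cell, and preparation 4 was lowest in every group. The log2 difference was -0.73 ± 0.19 (SE, adjusted p = 0.00885) in Cre cells and -0.72 ± 0.19 (SE, adjusted p = 0.0101) in GFP cells, or 0.602 and 0.608 times the level without TGF-beta. Cpt1c, a related protein best known from neurons, stood at 50.8, 52.8, 51.1 and 40.0 CPM in Cre cells with TGF-beta, against 75.3, 82.0, 59.6 and 60.9 without it. In GFP cells its levels were 55.2, 60.7, 51.8 and 44.7 CPM with TGF-beta, against 81.2, 86.3, 69.1 and 60.7 without it. The groups did not overlap, though in GFP cells they all but met, at 60.716 CPM in GFP with TGF-beta 2 and 60.721 in GFP 4. Cpt1c fell, with log2 differences of -0.51 ± 0.14 (SE, adjusted p = 0.0132) in Cre cells and -0.49 ± 0.14 (SE, adjusted p = 0.0183) in GFP cells. With 1 library left out at a time, the call of Cpt1a held, and that of Cpt1c ended in Cre cells without the library of Cre 2 (adjusted p = 0.0512) and in GFP cells without any 1 of GFP with TGF-beta 4, GFP 1 and 2 (adjusted p = 0.0586 to 0.0630).

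The inner steps of the shuttle moved less. Crat, which exchanges acetyl groups between CoA and carnitine, fell, with log2 differences of -0.36 ± 0.11 (SE, adjusted p = 0.0174) in Cre cells and -0.30 ± 0.11 (SE, adjusted p = 0.0462) in GFP cells. Its level was 29.4 to 34.1 CPM in Cre cells with TGF-beta, against 36.9 to 48.2 without it, and 31.5 to 38.9 CPM in GFP cells with TGF-beta, against 38.4 to 48.9 without it. The call of Crat ended in Cre cells without the library of Cre 2 (adjusted p = 0.0707), and in GFP cells without any 1 of 10 libraries, which were Cre with TGF-beta 1 and 2, GFP with TGF-beta 1, 3 and 4, Cre 1 and 3, GFP 1, 2 and 3 (adjusted p = 0.0556 to 0.133). Slc25a20, the carnitine-acylcarnitine carrier, was not called at -0.28 ± 0.12 (SE, adjusted p = 0.104) in Cre cells and -0.20 ± 0.12 (SE, adjusted p = 0.262) in GFP cells. In Cre cells it was called lower with the block (-0.27 ± 0.08 (SE, adjusted p = 0.0100)) and, without it, when preparation 4 was left out (-0.34, adjusted p = 0.0229), but the call with the block ended without any 1 of preparations 1, 2 and 3 (adjusted p = 0.0528 to 0.102). In GFP cells Slc25a20 was called lower with the block once preparation 4 was left out (-0.23, adjusted p = 0.0116). Cpt2, which turns acylcarnitine back into acyl-CoA inside, was at -0.13 ± 0.17 (SE, adjusted p = 0.591) and -0.11 ± 0.18 (SE, adjusted p = 0.686), and was called lower in Cre cells with the block and without preparation 4 (-0.20, adjusted p = 0.0450). Cpt1b, the muscle form of the entry enzyme and no member, was left untested, with 0 to 10 counts in a library. Thus 3 of 5 shuttle genes fell and none rose, and Cpt2 and Slc25a20 were not called over all 4 preparations without the block.

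Promoter windows from RefSeq (GRCm38.p6, 250 bases before to 50 after the start) were found for 30 of the 34 members. They are shown for Cpt1a and Cpt1c because both genes fell and both windows hold a nuclear receptor half-site, AGGTCA on either strand, in capitals. For Cpt1a the stretch is chr19:3323147-3323266 on the plus strand and the capitals read TGACCT, since the half-site lies on the minus strand. For Cpt1c it is chr7:44974938-44975057 on the minus strand, written in the direction of the gene.
Cpt1a: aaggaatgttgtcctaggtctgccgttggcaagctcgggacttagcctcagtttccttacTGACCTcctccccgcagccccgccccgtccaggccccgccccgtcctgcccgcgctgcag
Cpt1c: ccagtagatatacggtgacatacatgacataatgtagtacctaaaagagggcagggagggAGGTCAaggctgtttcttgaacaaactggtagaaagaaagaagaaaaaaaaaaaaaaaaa
The half-site was found in 5 members (Acadm, Acadvl, Cpt1a, Cpt1c and Echs1) and in 16.3% of the 32851 windows of all genes. Of these 5, Acadvl rose and Acadm and Echs1 were not called. The full PPAR element (AGGTCA and AGGTCA in the same direction with 1 base between them), its relaxed form (the same with AGGNCA in both places), the oestrogen-related receptor element TCAAGGTCA and the SMAD palindrome GTCTAGAC, searched on both strands, were in no member's window. Among all windows they were in 0.0396%, 0.381%, 0.423% and 0.213%. These matches are letters in a window and say nothing of binding.

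The acyl-CoA dehydrogenases, which start each round, did not move together. Acadvl, for very long chains, stood at 164, 181, 146 and 166 CPM in Cre cells with TGF-beta, against 129, 147, 116 and 119 without it. In GFP cells it had 171, 178, 149 and 143 CPM with TGF-beta, against 124, 146, 120.3 and 103 without it. Each preparation was higher with TGF-beta, though the groups overlapped by their edge values. The rise was 0.36 ± 0.12 (SE, adjusted p = 0.0298) in Cre cells and 0.38 ± 0.12 (SE, adjusted p = 0.0239) in GFP cells on the log2 scale. It was no longer called in Cre cells without any 1 of Cre with TGF-beta 1 and 2, Cre 1 and 3 (adjusted p = 0.0554 to 0.0869), or in GFP cells without any 1 of GFP with TGF-beta 1 and 2, GFP 1, 3 and 4 (adjusted p = 0.0547 to 0.0755). In the GENCODE annotation 42.9% of the exon length of Acadvl overlaps Dvl2 on the opposite strand. The strand setting of the counting is not given, so how reads in that overlap were counted is not known. The log2 difference of Dvl2 in GFP cells was -0.20 (adjusted p = 0.232).

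Acadl, for long chains, moved the other way. It had 49.9, 47.5, 46.7 and 45.7 CPM in Cre cells with TGF-beta, against 62.6, 63.0, 56.4 and 56.8 without it. The GFP cells held 49.5, 54.4, 47.6 and 42.4 CPM with TGF-beta, against 59.3, 65.1, 54.9 and 55.1 without it. No library with TGF-beta reached the lowest one without it, and the log2 differences were -0.33 ± 0.09 (SE, adjusted p = 0.0117) and -0.27 ± 0.09 (SE, adjusted p = 0.0330). The call in Cre cells held without any 1 library, and that in GFP cells ended without any 1 of GFP with TGF-beta 1, 3 and 4, GFP 1 and 2 (adjusted p = 0.0596 to 0.106). Acadsb, for short branched chains from isoleucine, fell, with log2 differences of -0.56 ± 0.20 (SE, adjusted p = 0.0467) in Cre cells and -0.70 ± 0.20 (SE, adjusted p = 0.0170) in GFP cells. Its levels with TGF-beta were 71.8, 62.5, 70.7 and 37.9 CPM in Cre cells and 72.2, 50.2, 63.3 and 41.3 in GFP cells. Without TGF-beta they were 104, 74.4, 88.6 and 91.1 in Cre cells and 108, 76.5, 89.5 and 94.4 in GFP cells. The steepest drop was in preparation 4, with log2 differences of -1.27 in Cre cells and -1.19 in GFP cells, against -0.25 to -0.61 in the other preparations. In Cre cells the call ended without any 1 of Cre with TGF-beta 2 and 4, GFP with TGF-beta 2 and 3, Cre 1, 3 and 4, GFP 1, 3 and 4 (adjusted p = 0.0521 to 0.130) and, without preparation 4 in every group, at -0.38 (adjusted p = 0.0841). In GFP cells it ended without any 1 of GFP with TGF-beta 2 and 4, GFP 1 (adjusted p = 0.0503 to 0.0582).

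Acadm, for medium chains, kept to a narrow range. Its level ranged from 32.9 to 37.6 CPM in Cre cells and 31.7 to 36.4 in GFP cells with TGF-beta, against 31.5 to 36.4 and 33.7 to 38.1 without it. The log2 differences were 0.02 ± 0.08 (SE, adjusted p = 0.908) in Cre cells, with a 95% interval of -0.16 to 0.19, and -0.10 ± 0.08 (SE, adjusted p = 0.389) in GFP cells, with an interval of -0.28 to 0.08. Acads, for short chains, was at 0.21 ± 0.12 (SE, adjusted p = 0.225) and 0.20 ± 0.12 (SE, adjusted p = 0.260) and was not called. So 1 of 5 dehydrogenases rose and 2 fell, in Cre and in GFP cells alike.

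**Figure D2:**
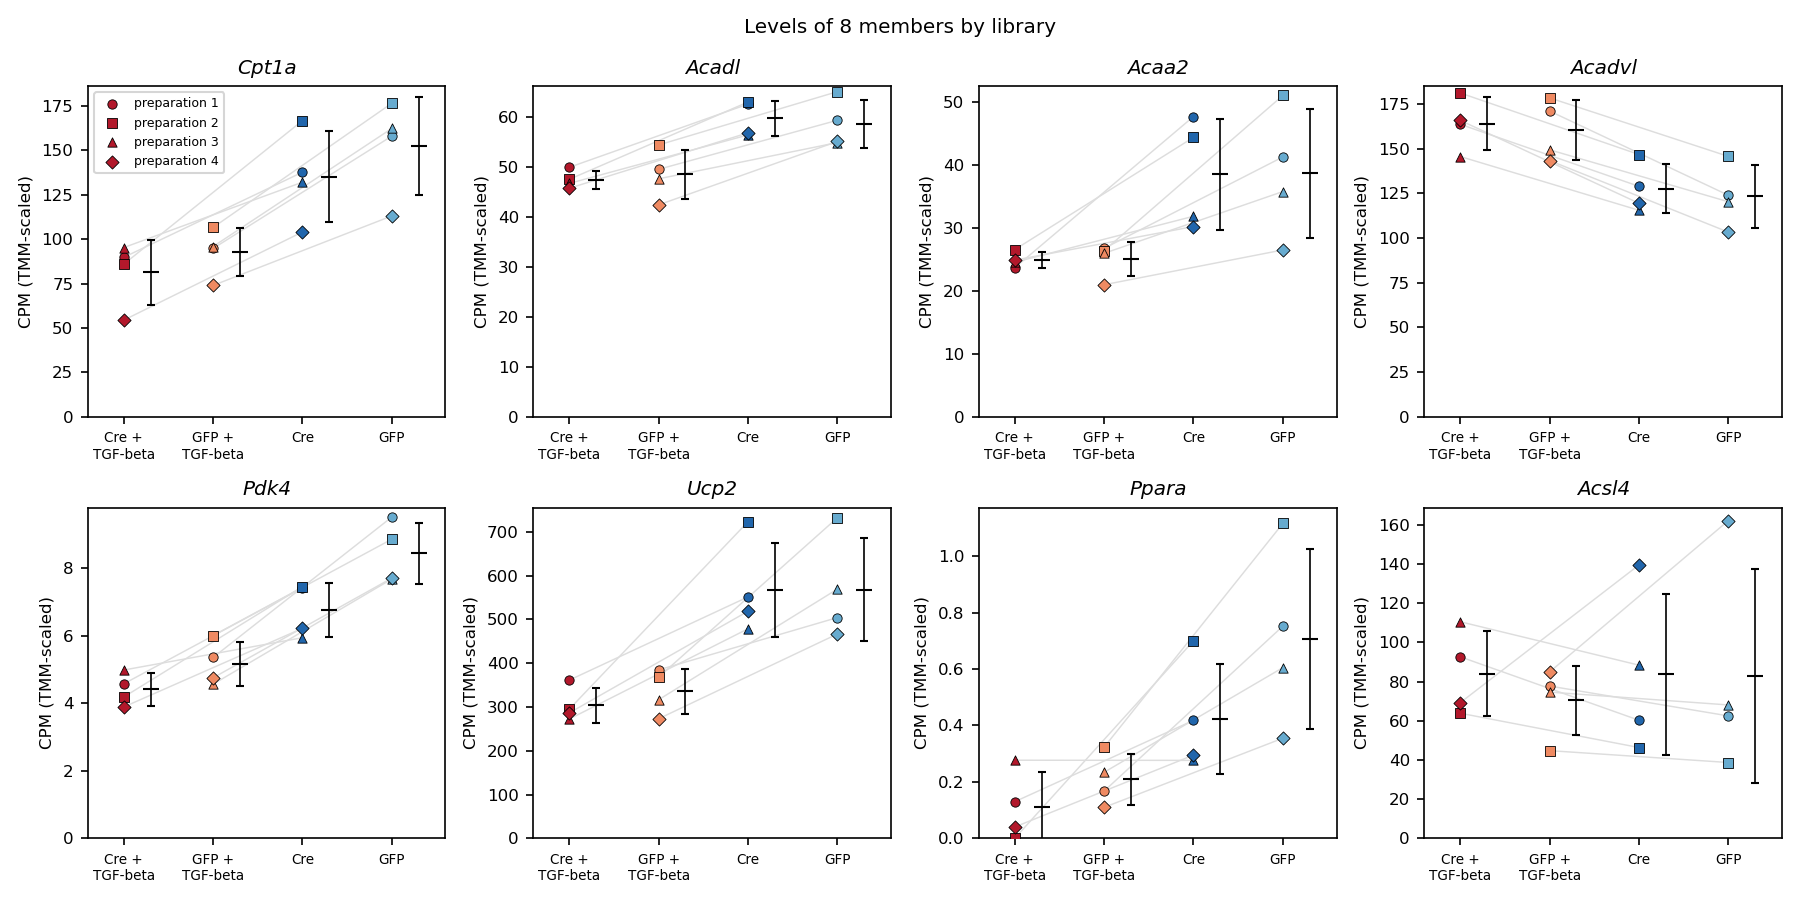
CPM (TMM-scaled, linear axes from 0) of 8 members in every library, with the 4 preparations as symbols joined by grey lines between TGF-beta and none, and the mean and SD (n = 4) beside each group. Cpt1a, Acadl, Acaa2, Pdk4, Ucp2 and Ppara lie lower with TGF-beta on average and Acadvl higher. Acsl4 in preparation 4 lies at 139.6 CPM in Cre cells and 162 in GFP cells without TGF-beta, above every other library.

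Among the members of the later mitochondrial steps, only Acaa2 was called over all 4 preparations without the block. Acaa2, a thiolase that releases acetyl-CoA, had 23.7, 26.6, 24.6 and 24.9 CPM in Cre cells with TGF-beta, against 47.7, 44.4, 31.9 and 30.2 without it. Its level in GFP cells was 26.8, 26.4, 26.0 and 21.0 CPM with TGF-beta, against 41.3, 51.1, 35.8 and 26.5 without it. The 8 libraries with TGF-beta were within 21.0 to 26.8 CPM, whereas those without it spread from 26.5 to 51.1, so the groups overlapped in GFP cells by a small margin and not in Cre cells. Acaa2 fell, with log2 differences of -0.63 ± 0.18 (SE, adjusted p = 0.0167) in Cre cells and -0.63 ± 0.18 (SE, adjusted p = 0.0175) in GFP cells, and preparations 1 and 2 had the larger ones. The call ended in Cre cells without either of Cre 1 and 2 (adjusted p = 0.0541 to 0.0654), and in GFP cells without either of GFP with TGF-beta 4, GFP 2 (adjusted p = 0.0530 to 0.0683).

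Hadha, the alpha subunit of the trifunctional protein of long chains, stood at 243, 224, 219 and 177 CPM in Cre cells with TGF-beta, against 264, 289.9, 248 and 210.4 without it. The GFP cells had 244, 256, 244 and 178 CPM with TGF-beta, against 255, 285, 253 and 201 without it. Every preparation was lower with TGF-beta, but the spread between preparations was wider than this difference, and Hadha was not called without the block (-0.23 ± 0.14 (SE, adjusted p = 0.242) in Cre cells and -0.11 ± 0.14 (SE, adjusted p = 0.623) in GFP cells). With it, Hadha was called lower in Cre cells (-0.23 ± 0.06 (SE, adjusted p = 0.00547)) and not in GFP cells (-0.11 ± 0.06 (SE, adjusted p = 0.153)), and the call ended without preparation 2 (adjusted p = 0.0712). Without preparation 4 and without the block it was also called in Cre cells, at -0.22 (adjusted p = 0.0440). Hadhb, the beta subunit, had differences of 0.11 ± 0.09 (SE, adjusted p = 0.414) and 0.16 ± 0.09 (SE, adjusted p = 0.225), and 62.4% of the 50-base windows of its transcript also occur in the pseudogene Gm13910, which had 11 to 33 counts. Hadhb was called higher in GFP cells without the library of GFP with TGF-beta 4 (adjusted p = 0.0472), and without preparation 4 in every group, at 0.23 both without the block (adjusted p = 0.0299) and with it (adjusted p = 0.0126). Hadh, the short-chain hydroxyacyl-CoA dehydrogenase, was at 0.03 ± 0.11 and -0.05 ± 0.11, and Echs1, the short-chain hydratase, at -0.03 ± 0.18 and 0.10 ± 0.18. Neither was called.

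Of the proteins that hand electrons to ubiquinone, Etfdh moved most clearly. This gene of the ubiquinone oxidoreductase stood at 54.0, 50.3, 50.4 and 36.5 CPM in Cre cells with TGF-beta, against 41.1, 42.2, 38.0 and 35.4 without it. For GFP cells the values were 55.0, 53.0, 54.8 and 46.1 CPM with TGF-beta, against 41.3, 42.2, 41.0 and 36.8 without it. The GFP groups did not overlap, whereas in Cre cells the library of preparation 4 with TGF-beta lay below 3 of the 4 without it. Etfdh rose by 0.37 ± 0.11 (SE, adjusted p = 0.0236) in GFP cells, a call that ended without any 1 of GFP with TGF-beta 1, 2 and 3, GFP 4 (adjusted p = 0.0520 to 0.0632). In Cre cells the difference of 0.29 ± 0.11 (SE, adjusted p = 0.0700) was not called without the block and was with it (0.28 ± 0.07 (SE, adjusted p = 0.00417)), though not with preparation 1 left out (adjusted p = 0.0554). Without the block it was also called without the library of Cre with TGF-beta 4 (adjusted p = 0.00449), and without preparation 4 in every group (0.36, adjusted p = 0.00173). The test of the difference between the responses of Cre and GFP cells is given with the Cre comparisons.

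The flavoprotein subunits differed from each other. Etfa, the alpha subunit, was at 0.00 ± 0.10 (SE, adjusted p = 0.998) in Cre cells and -0.13 ± 0.10 (SE, adjusted p = 0.376) in GFP cells. Etfb, the beta subunit, had 0.35 ± 0.18 (SE, adjusted p = 0.149) in Cre cells and 0.16 ± 0.18 (SE, adjusted p = 0.547) in GFP cells, and was called higher in Cre cells with the block (0.32 ± 0.12 (SE, adjusted p = 0.0354)), a call that ended without preparation 2 (adjusted p = 0.281) or 4 (adjusted p = 0.0930). In Cre cells it was higher with TGF-beta in preparations 2 and 4, with log2 differences of -0.03, 0.66, 0.00 and 0.61 over the 4 preparations. Without the block it was called there without the library of Cre with TGF-beta 3 (adjusted p = 0.0260). The annotation places 53.0% of the exon length of Etfb inside a readthrough gene, Gm45233, which itself had 0 to 6 counts.

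Among the enzymes that deal with double bonds, Eci1 rose in GFP cells. This mitochondrial enoyl-CoA isomerase had 23.1, 23.4, 18.5 and 26.4 CPM in Cre cells with TGF-beta, against 21.5, 20.1, 16.5 and 21.0 without it. Its levels in GFP cells were 23.6, 23.1, 20.8 and 21.6 CPM with TGF-beta, against 18.3, 17.5, 15.2 and 19.6 without it. The GFP groups did not overlap and the Cre groups did. The log2 difference was 0.21 ± 0.12 (SE, adjusted p = 0.210) in Cre cells and 0.34 ± 0.12 (SE, adjusted p = 0.0495) in GFP cells, and with the block it was called in Cre cells too (0.20 ± 0.08 (SE, adjusted p = 0.0393)), but not with any 1 of the 4 preparations left out (adjusted p = 0.0686 to 0.141). Without the block the call in GFP cells ended without any 1 of 12 of the 16 libraries, which were Cre with TGF-beta 1 and 2, GFP with TGF-beta 1, 2, 3 and 4, Cre 1, 2 and 4, GFP 1, 2 and 3 (adjusted p = 0.0585 to 0.157). Eci2, the related isomerase, was at -0.18 ± 0.12 (SE, adjusted p = 0.275) and -0.11 ± 0.12 (SE, adjusted p = 0.556), called lower with the block in Cre cells (-0.18 ± 0.06 (SE, adjusted p = 0.0194)) but not with preparation 1, 2 or 3 left out (adjusted p = 0.0871 to 0.1247). Decr1, the dienoyl-CoA reductase, was at -0.03 ± 0.11 and -0.02 ± 0.11 and not called.

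No peroxisomal member was called without the block. Acox3, an oxidase for branched chains, had log2 differences of -0.20 ± 0.16 (SE, adjusted p = 0.354) in Cre cells and -0.22 ± 0.16 (SE, adjusted p = 0.331) in GFP cells. Acaa1a, the peroxisomal thiolase, had -0.30 ± 0.13 (SE, adjusted p = 0.0987) and -0.29 ± 0.13 (SE, adjusted p = 0.123) and was lower in all 4 preparations in both kinds of cell. With the block both were called lower in Cre cells (-0.21 ± 0.08 (SE, adjusted p = 0.0363) and -0.30 ± 0.07 (SE, adjusted p = 0.00213)) and in GFP cells (-0.23 ± 0.08 (SE, adjusted p = 0.0268) and -0.28 ± 0.07 (SE, adjusted p = 0.00386)). The call of Acox3 ended in Cre cells without any 1 preparation (adjusted p = 0.0530 to 0.165) and in GFP cells without preparation 2, 3 or 4 (adjusted p = 0.0547 to 0.219). That of Acaa1a held in Cre cells and ended in GFP cells without preparation 2 (adjusted p = 0.0622). Of the 50-base windows of Acaa1a, 34% occur also in Acaa1b, which had 4 to 37 counts. Hsd17b4 and Ehhadh, the bifunctional enzymes, had 0.05 ± 0.10 and -0.05 ± 0.26 in Cre cells and 0.04 ± 0.10 and -0.02 ± 0.26 in GFP cells and were not called.

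The long-chain acyl-CoA synthetases went separate ways. Acsl3, which is found on the endoplasmic reticulum and lipid droplets, had 21.9, 21.3, 24.8 and 19.0 CPM in Cre cells with TGF-beta, against 14.5, 17.2, 18.5 and 16.4 without it. In GFP cells it had 23.4, 19.5, 25.7 and 19.6 CPM with TGF-beta, against 14.9, 16.8, 21.2 and 17.5 without it. It rose by 0.38 ± 0.13 (SE, adjusted p = 0.0392) in Cre cells, where the groups did not overlap, and was not called at 0.32 ± 0.13 (SE, adjusted p = 0.0809) in GFP cells except with the block (0.33 ± 0.09 (SE, adjusted p = 0.0100)) or without the library of GFP 3 (adjusted p = 0.0374). The call with the block ended without preparation 1 (adjusted p = 0.110). In Cre cells the call without the block ended without any 1 of Cre with TGF-beta 1, 2 and 3, Cre 1, 2 and 4 (adjusted p = 0.0607 to 0.122). Acsl1, the main synthetase of muscle and fat, had 6.13 to 13.4 CPM in Cre cells and 8.44 to 15.8 in GFP cells with TGF-beta, against 11.0 to 18.3 and 12.1 to 19.8 without it. All 4 preparations were lower with TGF-beta, and the difference of -0.51 ± 0.25 (SE, adjusted p = 0.142) in Cre cells and -0.49 ± 0.25 (SE, adjusted p = 0.169) in GFP cells was called with the block (-0.53 ± 0.12 (SE, adjusted p = 0.00165) and -0.49 ± 0.12 (SE, adjusted p = 0.00358)) and, without it, when preparation 4 was left out (-0.44, adjusted p = 0.0299, and -0.47, adjusted p = 0.0227). The call with the block ended in GFP cells without preparation 3 (adjusted p = 0.0591).

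Acsl4, the X-linked synthetase that prefers arachidonic acid, differed in direction between preparations. It had 92.7, 63.9, 111 and 69.2 CPM in Cre cells with TGF-beta, against 60.3, 46.4, 88.4 and 139.6 without it, and 77.7, 44.8, 74.6 and 84.9 CPM in GFP cells with TGF-beta, against 62.5, 38.7, 68.1 and 162 without it. In preparations 1 to 3 the libraries with TGF-beta were higher in every pair, by 1.25 to 1.54 times in Cre cells and 1.10 to 1.24 times in GFP cells, while in preparation 4 they were at 0.496 and 0.524 times. Over all 4 preparations Acsl4 was not called (0.01 ± 0.40 (SE, adjusted p = 0.991) in Cre cells and -0.23 ± 0.40 (SE, adjusted p = 0.708) in GFP cells). With preparation 4 left out, an alternative chosen after seeing the data where no block was used, the log2 difference was 0.47 in Cre cells (adjusted p = 0.219 without and 0.000318 with the block). In GFP cells it was 0.21 without the block (adjusted p = 0.603) and 0.22 with it (adjusted p = 0.0529).

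The 2 thioesterases, which split acyl-CoA into free acid and CoA, moved in opposite directions. Acot1, the cytosolic form, had 1.20, 1.28, 1.70 and 1.40 CPM in Cre cells with TGF-beta, against 7.11, 7.97, 7.78 and 6.41 without it. The GFP cells had 1.45, 1.43, 1.81 and 0.695 CPM with TGF-beta, against 5.00, 9.00, 9.21 and 5.98 without it. No library with TGF-beta reached 2 CPM and none without it was below 5. The log2 differences, -2.39 ± 0.26 (SE, adjusted p = 9.57e-06) in Cre cells and -2.45 ± 0.27 (SE, adjusted p = 9.06e-06) in GFP cells, were the largest of any member and correspond to 0.191 and 0.183 times the level without TGF-beta.

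Acot2, the mitochondrial form, had 13.9, 21.1, 13.8 and 9.82 CPM in Cre cells with TGF-beta, against 8.12, 7.57, 7.32 and 10.0 without it. Its GFP levels were 13.0, 22.9, 11.9 and 13.6 CPM with TGF-beta, against 6.88, 8.06, 7.45 and 10.6 without it. The GFP groups did not overlap. In Cre cells they did, with no rise in preparation 4, and preparation 2 had the highest library with TGF-beta in both. The log2 difference was 0.83 ± 0.24 (SE, adjusted p = 0.0176) in Cre cells and 0.90 ± 0.24 (SE, adjusted p = 0.0116) in GFP cells, which is 1.77 and 1.87 times the level without TGF-beta. The call in GFP cells held without any 1 library, as did both calls of Acot1, and that in Cre cells ended without either of Cre with TGF-beta 2, Cre 2 (adjusted p = 0.0505 to 0.0712).

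The summed counts of the pair had close group means but varied between libraries. Together they held 16.1 ± 4.64 CPM in Cre cells and 16.7 ± 5.10 in GFP cells with TGF-beta, against 15.6 ± 0.604 in Cre cells and 15.6 ± 2.46 in GFP cells without it (SD, n = 4 each). The sums ran from 11.2 to 22.4 CPM in Cre cells and 13.7 to 24.3 in GFP cells with TGF-beta, against 15.1 to 16.4 and 11.9 to 17.1 without it, and preparation 2 was highest in every group but that of Cre cells without TGF-beta. Of the pair's counts, Acot1 took 9.29 ± 3.04% in Cre cells and 8.50 ± 3.88% in GFP cells with TGF-beta, against 47.1 ± 5.84% and 46.5 ± 9.07% without it. The ranges were 5.72 to 12.5% and 4.86 to 13.2% with TGF-beta, against 39.0 to 51.5% and 36.0 to 55.3% without it, so the share separated the groups in all 16 libraries.

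These neighbouring genes on chromosome 12 are near copies, which bears on how far their counts can be told apart. Their coding sequences in the GENCODE M21 transcripts are identical at 95.5% of 1239 aligned bases, with a longest identical run of 273 bases. The stretch of 120 coding bases below runs from the end of that kind of shared sequence into one with 14 differences, which stand in capitals (coding bases 767 to 886 of Acot1 and 890 to 1009 of Acot2).
Acot1: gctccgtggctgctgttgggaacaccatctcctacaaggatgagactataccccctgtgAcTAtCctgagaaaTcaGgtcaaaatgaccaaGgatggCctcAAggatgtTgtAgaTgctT
Acot2: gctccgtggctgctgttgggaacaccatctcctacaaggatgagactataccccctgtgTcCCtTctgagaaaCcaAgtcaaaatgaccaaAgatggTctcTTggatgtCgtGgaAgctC
Of the 50-base windows of the Acot1 transcript 33.6% occur in another gene, and of those of Acot2 27.7%. At 100 bases the shares are 21.9% and 17.1%. How the aligner placed reads from these stretches is not given in the sources used here, and its part in the split between the pair was not tested. Of the other genes of the cluster, Acot3 had 0 to 4 counts, Acot5 had 0 and Acot4 had 15 to 59, with a log2 difference of 0.25 in GFP cells (adjusted p = 0.622).

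**Figure D3:**
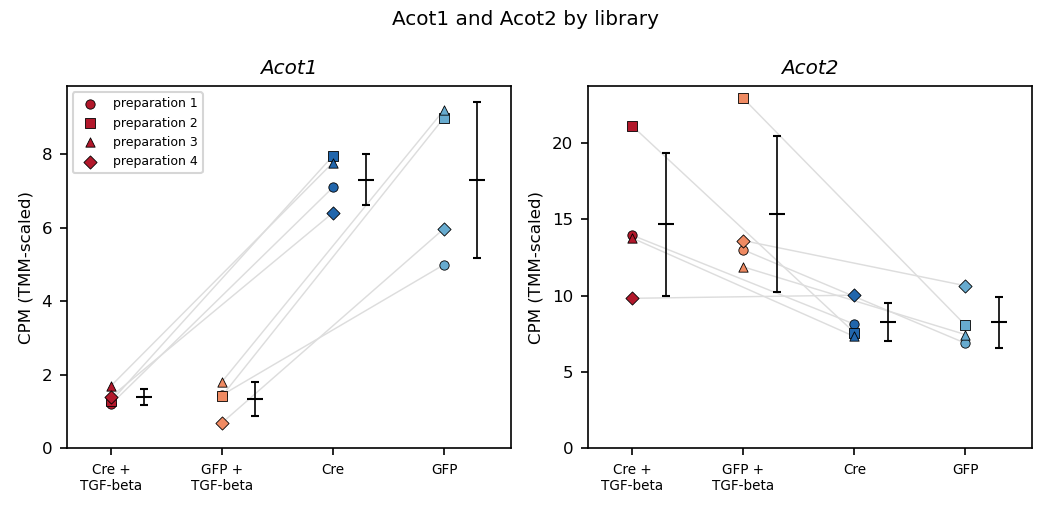
CPM (TMM-scaled, linear axes from 0) of Acot1 and Acot2 in every library, with symbols for the 4 preparations, grey lines between TGF-beta and none, and the mean and SD (n = 4) beside each group. Acot1 lies between 0.695 and 1.81 CPM in the 8 libraries with TGF-beta and between 5.00 and 9.21 in the 8 without it, and Acot2 is higher with TGF-beta in every pair but that of preparation 4 in Cre cells.

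All 3 tested regulators and coupled genes fell. Ppara, the gene of PPAR-alpha, had 0.130, 0, 0.277 and 0.0401 CPM in Cre cells with TGF-beta, against 0.418, 0.700, 0.276 and 0.295 without it. In GFP cells it had 0.167, 0.323, 0.234 and 0.110 CPM with TGF-beta, against 0.752, 1.12, 0.605 and 0.355 without it. The GFP groups did not overlap, and the Cre groups met at 0.277 and 0.276 CPM in preparation 3. The log2 differences of -1.92 ± 0.63 (SE, adjusted p = 0.0315) and -1.72 ± 0.58 (SE, adjusted p = 0.0358) rest on few counts, and 1 library, of Cre cells with TGF-beta in preparation 2, had none. The call ended in Cre cells without any 1 of Cre with TGF-beta 1, 2 and 4, Cre 1 and 2 (adjusted p = 0.0586 to 0.114), and in GFP cells without any 1 of GFP with TGF-beta 1, 3 and 4, GFP 1, 2 and 3 (adjusted p = 0.0509 to 0.116). The calls with the block ended without preparation 2 in Cre cells (adjusted p = 0.0623) and without preparation 1 in GFP cells (adjusted p = 0.0555).

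Pdk4, a kinase that switches off pyruvate dehydrogenase and so spares glucose when fatty acids burn, had 4.57, 4.18, 4.98 and 3.89 CPM in Cre cells with TGF-beta, against 7.42, 7.45, 5.94 and 6.22 without it. It had 5.35, 6.00, 4.56 and 4.75 CPM in GFP cells with TGF-beta, against 9.51, 8.86, 7.68 and 7.70 without it. Neither pair of groups overlapped, and it fell, with log2 differences of -0.62 ± 0.14 (SE, adjusted p = 0.00400) in Cre cells and -0.71 ± 0.14 (SE, adjusted p = 0.00165) in GFP cells. Ucp2, a carrier of the inner mitochondrial membrane, had 361, 295, 272 and 286 CPM in Cre cells with TGF-beta, against 551, 723, 479 and 519 without it. For GFP cells the levels were 385, 368, 316 and 273 CPM with TGF-beta, against 504, 732, 569 and 467 without it. Ucp2 fell without overlap, with log2 differences of -0.90 ± 0.17 (SE, adjusted p = 0.000799) in Cre cells and -0.76 ± 0.17 (SE, adjusted p = 0.00286) in GFP cells, or 0.535 and 0.591 times the level without TGF-beta. The calls of Pdk4 and Ucp2 held in both kinds of cell without any 1 library.

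Counts of all 34 members summed to 1871 ± 120.2 CPM in Cre cells and 1905 ± 190.5 in GFP cells with TGF-beta, against 2281 ± 215 and 2285 ± 225 without it (SD, n = 4 each). Ucp2 made up 16.2% and 17.5% of this sum with TGF-beta, against 24.7% in both kinds of cell without it. Without Ucp2 the sums were 1567 ± 96.0 and 1569.9 ± 141 CPM with TGF-beta, against 1713 ± 114 and 1717 ± 117 without it. Sums of counts weight long and abundant genes and are given as a description.

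The Cre virus was set against the GFP virus to ask whether Has2 deletion changes these genes. No member was called in Cre against GFP cells with TGF-beta or without it, and none in the difference between the responses to TGF-beta. Without the block 0% of all genes were called in each. With the block no member was called either, against 0.0654% of all genes with TGF-beta, 0.17% without it and 0% for the difference in response. At an unadjusted p under 0.05, edgeR's quasi-likelihood test listed 1 member with TGF-beta, 1 without it and 0 for the difference in response, and 4, 2 and 0 with the block. Over all genes the unadjusted shares were 1.75%, 1.11% and 0.589% without the block and 13.3%, 5.77% and 3.28% with it. DESeq2 called no member in any of these 3 comparisons. The sign was the same in all 4 preparations for 9 members with TGF-beta (24.2% of all genes), 8 without it (26%) and 3 for the difference in response (16.5%).

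The intervals show what size of difference this leaves. Without the block, the 95% interval lay within ±0.5 on the log2 scale for 23 of 33 members with TGF-beta, 24 without it and 18 for the difference in response. With the block, it did so for 29, 30 and 27 members in the same order. Ppara had the widest ones, -2.24 to 0.48 with TGF-beta and -1.53 to 0.16 without it. For Acot1 and Ucp2 the intervals were -0.37 to 0.58 and -0.37 to 0.11 with TGF-beta, against -0.31 to 0.39 and -0.24 to 0.24 without it. The members' median difference between Cre and GFP cells, with the block, was -0.03 with TGF-beta and 0.003 without it.

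The smallest p-values, none past the threshold, came from the flavoprotein genes with TGF-beta. Etfa had 61.3, 67.6, 61.7 and 75.0 CPM in Cre cells with TGF-beta, against 59.1, 51.7, 54.6 and 60.9 in GFP cells with it. It was the one member whose groups did not overlap there (1.58% of all genes tested, 0.824% in the direction of Etfa), with a log2 difference of 0.23 ± 0.07 with the block (edgeR, unadjusted p = 0.00374, adjusted p = 0.198). Etfb had 33.0, 47.2, 25.6 and 47.5 CPM in Cre cells, against 28.0, 33.0, 25.3 and 31.6 in GFP cells, a difference of 0.35 ± 0.12 (SE, adjusted p = 0.274) with the block. It was higher in Cre cells in all 4 preparations, by as little as 0.02 in preparation 3 and 0.59 in preparation 4. For Cpt1a the difference was -0.21 ± 0.08 (SE, adjusted p = 0.310) with TGF-beta and -0.17 ± 0.08 (SE, adjusted p = 0.827) without it, lower in Cre cells in 4 of 4 preparations each time.

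Without TGF-beta, Pdk4 was lower in Cre cells in every preparation. Its levels were 7.42, 7.45, 5.94 and 6.22 CPM in Cre cells, against 9.51, 8.86, 7.68 and 7.70 in GFP cells, without overlap (1.47% of all genes tested, 0.334% in that direction). The log2 difference with the block was -0.32 ± 0.11 (edgeR, unadjusted p = 0.0123, adjusted p = 0.724). Eci1 was at 0.17 ± 0.08 (SE, adjusted p = 0.827) in the same comparison. With preparation 4 left out and the block kept, 1 member was called, Acsl4, which was higher in Cre than in GFP cells with TGF-beta by 0.45 (adjusted p = 0.0287), against 0.32 ± 0.26 (SE, adjusted p = 0.617) over all 4 preparations. In that setting 224 of all genes tested were called higher and 8 lower in the same comparison.

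**Figure D4:**
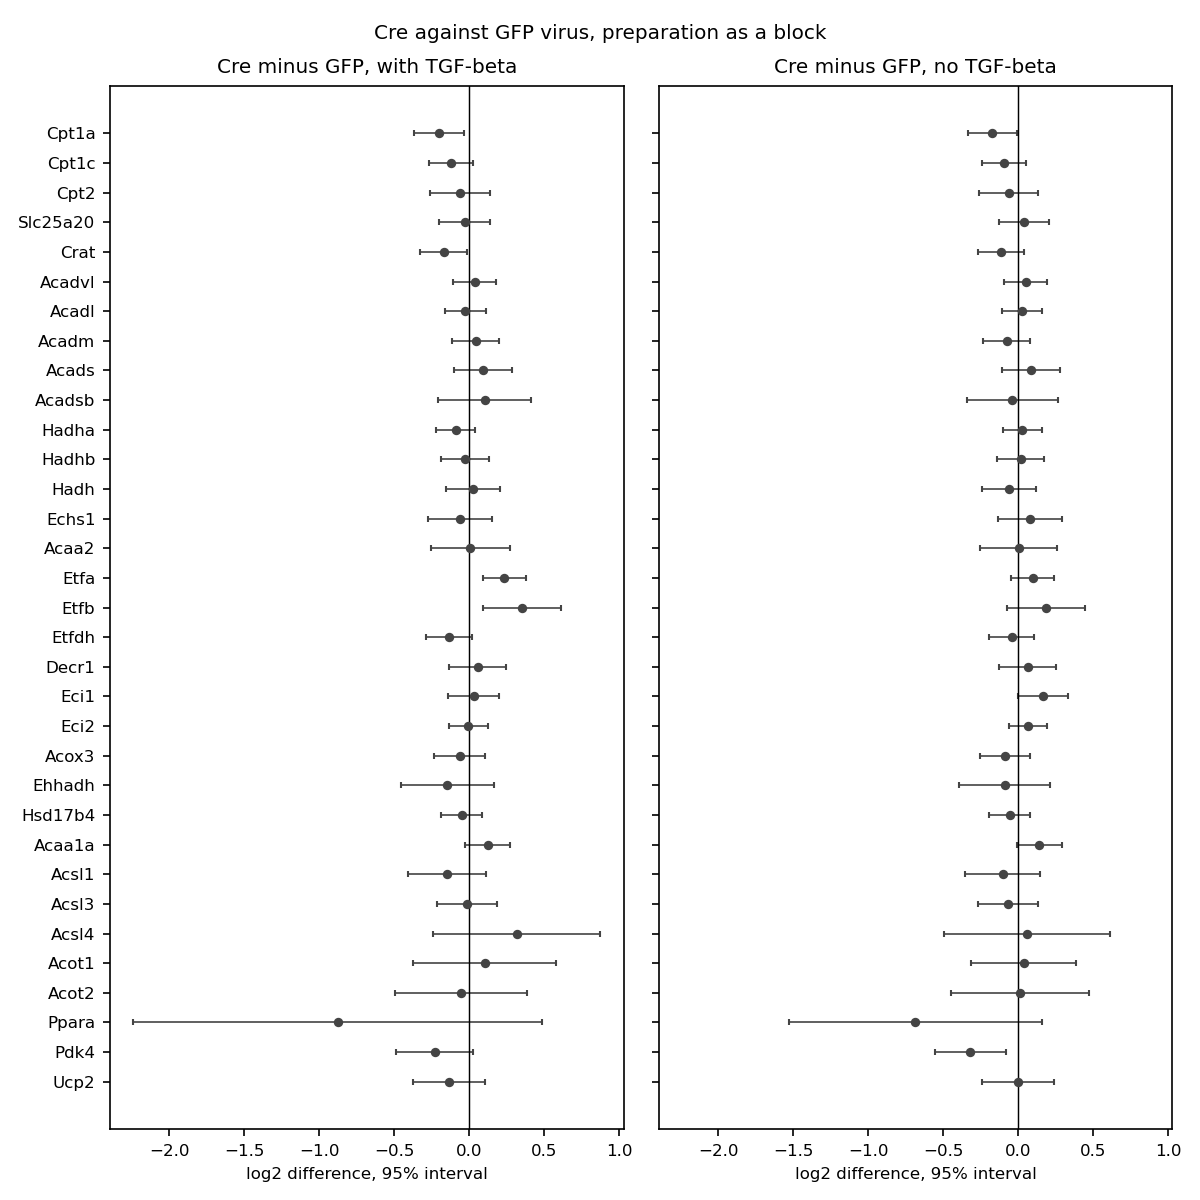
Log2 difference between Cre and GFP cells for the 33 tested members, with TGF-beta (left) and without it (right), from the fit with preparation as a block. Points are fitted differences and bars their 95% intervals. Most lie within 0.5 of 0, Ppara has the widest interval, and none was called after adjustment.

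The response to TGF-beta in Cre cells less that in GFP cells was smallest in p for Etfa, Hadha and Eci1. With the block it was 0.13 ± 0.10 (SE, adjusted p = 1.00) for Etfa, -0.12 ± 0.09 (SE, adjusted p = 1.00) for Hadha and -0.14 ± 0.11 (SE, adjusted p = 1.00) for Eci1. Hadha had the same sign in 4 of 4 preparations, the others did not. For Etfdh, called without the block in GFP cells only, it was -0.09 ± 0.10 (SE, adjusted p = 1.00), and for Acsl3, called in Cre cells only, 0.05 ± 0.13 (SE, adjusted p = 1.00).

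Other genes of fatty acid metabolism were counted from 6 lists by function, without the block unless stated. To be set beside the counts of each list, 14% of all genes tested rose and 16.3% fell in Cre cells. In GFP cells 13.8% rose and 15.3% fell. Among 22 tested genes of other mitochondrial oxidation, 2 rose and 5 fell with TGF-beta in Cre cells, and 2 rose and 4 fell in GFP cells. The thioesterases Acot13 (0.78 ± 0.13 (SE, adjusted p = 0.000306) in Cre cells, 0.73 ± 0.13 (SE, adjusted p = 0.000583) in GFP cells) and Acot9 (0.63 ± 0.13 and 0.61 ± 0.13) rose, and Slc22a5, the plasma-membrane carnitine transporter, fell (-0.89 ± 0.18 (SE, adjusted p = 0.00136) and -0.83 ± 0.18 (SE, adjusted p = 0.00234)). Of 18 other peroxisomal genes, 1 rose and 5 fell in Cre cells, and 1 rose and 6 fell in GFP cells. The fatty acyl transporter Abcd2 (-2.27 ± 0.36 and -2.69 ± 0.37) and the carrier and thiolase Scp2 (-0.48 ± 0.10 and -0.59 ± 0.10) fell in both.

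Uptake genes were split, with 5 higher and 5 lower of 19 in Cre cells and 4 and 4 in GFP cells. Lpl, the lipase that frees fatty acids from lipoproteins, had 8.63, 8.89, 11.5 and 7.94 CPM in Cre cells and 7.81, 7.83, 11.2 and 7.60 in GFP cells with TGF-beta, against 134, 94.1, 107 and 48.9 in Cre cells and 127, 91.8, 108 and 47.0 in GFP cells without it. It fell, with log2 differences of -3.38 ± 0.32 and -3.45 ± 0.33, and no libraries overlapped. Slc27a3, of the fatty acid transport family, also fell (-2.71 ± 0.27 and -2.70 ± 0.27), and Fabp3, the heart fatty acid-binding protein, rose (2.10 ± 0.33 and 2.87 ± 0.36).

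The regulator list had 5 higher and 4 lower of 25 in Cre cells and 3 and 6 in GFP cells. Fgf21, a hormone gene induced by PPAR-alpha in liver, had 12.6, 20.6, 6.96 and 8.06 CPM in Cre cells and 11.8, 19.1, 8.07 and 8.33 in GFP cells with TGF-beta. Without TGF-beta it had 0.0523, 0.0617, 0.0921 and 0.0491 in Cre cells and 0, 0.0720, 0.233 and 0.152 in GFP cells, and it rose in both (adjusted p = 4.28e-07 and 9.94e-07). The pyruvate dehydrogenase kinases Pdk1 (-1.29 ± 0.24 and -1.11 ± 0.24) and Pdk3 (-0.44 ± 0.08 and -0.37 ± 0.08) fell, as Pdk4 did. Ppard, the gene of PPAR-delta, was not called (-0.09 ± 0.11 and -0.11 ± 0.12). It was added after the values were seen.

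TCA cycle and synthesis genes more often rose. Of 22 tested TCA cycle genes 8 rose and 1 fell in each kind of cell, with medians of 0.17 in Cre cells and 0.24 in GFP cells. Dlat, of the pyruvate dehydrogenase complex (0.64 ± 0.08 and 0.64 ± 0.08), Mdh2, malate dehydrogenase (0.76 ± 0.13 and 0.83 ± 0.13), and Cs, citrate synthase (0.38 ± 0.08 and 0.43 ± 0.08), had the smallest adjusted p in GFP cells. Of 17 tested synthesis genes 6 rose and 1 fell in Cre cells and 8 rose and 1 fell in GFP cells, with medians of 0.26 and 0.37. The elongation enzymes Hacd1 (1.36 ± 0.16 and 1.21 ± 0.16), Hacd3 (0.42 ± 0.08 and 0.47 ± 0.08) and Hsd17b12 (0.47 ± 0.10 and 0.55 ± 0.10) led. No gene of these 6 lists was called between Cre and GFP cells, with or without the block, and between 0 and 4 per list had an unadjusted p under 0.05. With the block 11 TCA cycle genes rose and 2 fell in Cre cells and 13 rose and 1 fell in GFP cells, and 10 synthesis genes rose and 3 fell in both. Of all genes 25.2% then rose and 27.3% fell in Cre cells, and 22.6% and 26.5% in GFP cells.

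**Figure D5:**
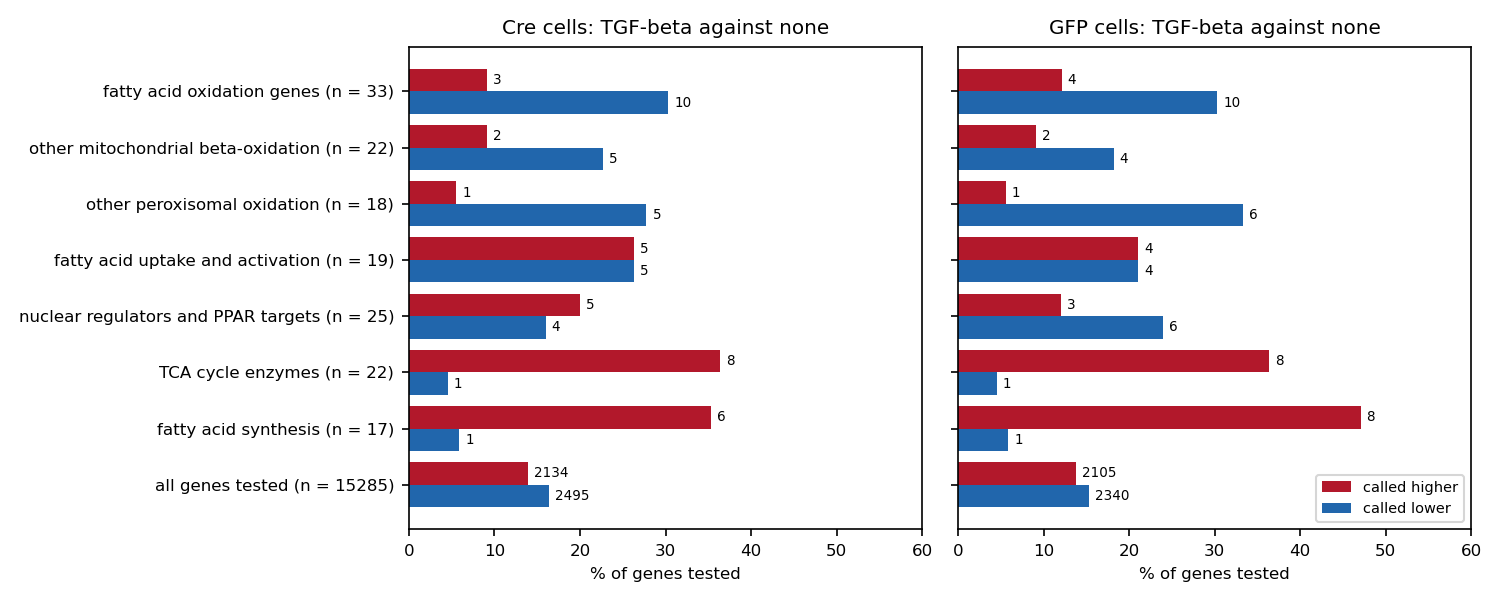
Share of tested genes called higher (red) and lower (blue) with TGF-beta in Cre cells (left) and GFP cells (right), for the fatty acid oxidation genes, 6 lists of related genes and all genes tested, without the block; numbers at the bars are gene counts. In both panels the oxidation genes have more members lower than higher (10 against 3 and 10 against 4), and the TCA cycle and synthesis lists have more members higher.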

How the data were processed

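The authors deposited raw read counts per gene for 16 libraries, as whole numbers that were not normalized. Per the submitters' processing notes, FastQC 0.10.1, HTSeq 0.10.0 and the build mm39 (GRCm39) were used. Not given in the sources used here are the aligner, the annotation and the strandedness of counting. Symbols, exon lengths and coding sequences came from GENCODE M21 and promoters from RefSeq GRCm38.p6, both of an earlier build. No value column was left unused, and per the labels each column was matched to a sample by its library name. Library totals were 17.9 to 48.7 M, and the filter kept genes holding 99.9% of counts. Fitted differences of genes with few counts depend on the prior count.

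Counts were tested with edgeR 4.0.16 (limma 3.58.1, R 4.3.3). The steps were filterByExpr (minimum count 10, total 15), TMM scaling (factors 0.908 to 1.12), a robust quasi-likelihood fit of all 16 libraries with 1 mean per group, and Benjamini-Hochberg adjustment over 15285 genes at 0.05. The prior count was 0.125. The SE is the log2 difference over the square root of F. Per-preparation differences used a prior of 0.5 counts. The fit was also tested on simulated data.

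Equal replicate numbers share a preparation code and sex in the library names, so they pair the samples. Their deviations from group means correlated in all 24 pairs (r from 0.285 to 0.810), against a maximum of 0.266 over the 72 other pairs. Adding this block lowered edgeR's biological coefficient of variation to 0.123, against 0.254 otherwise. Whether a preparation is 1 animal is not stated, so the preparation is the unit of replication. Without the block, p-values set a difference against the spread between preparations. With the block, they set it against the spread left once each preparation's own level is taken out. No pair of libraries of a group agreed within sampling noise (chi-square per gene 6.59 to 214).

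Members, lists and alternatives were chosen with earlier results of these data known. All 34 members are accounted for. Levels by library are given for the 10 with the smallest adjusted p in GFP cells, the 3 with the smallest p with the block in each Cre comparison, Cpt1a, Acadl, Hadha, Ppara and Pdk4, and a few more. Of these, Etfa and Etfb are given by library with TGF-beta only. Acadm and Ppargc1a, also meant to be given by library, appear as ranges. Each other list is represented by the 3 genes with the smallest adjusted p in GFP cells, apart from an item that is not reported here. Alternatives were the block, DESeq2 1.42.0, RLE size factors, no or a stricter filter (5 CPM in 4 libraries), a prior count of 2, a fit of the compared libraries alone, a covariate for sex, and leaving out each library or preparation.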

Additional observations from a re-analysis of the deposited data

Results flagged for a closer look

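Among the 132 combinations of a tested member and a group of 4 libraries, 8 held 1 library far from its other 3 by Dixon's criterion, which chance alone would give in about 1 of 20 groups. Preparation 4 supplied 6 of them. In GFP cells with TGF-beta its library was lowest for Acaa2, at 21.0 CPM against 26.0 to 26.8 in the other 3, for Hadha, at 178 against 244 to 256, for Hsd17b4, at 82.4 against 98.0 to 101.1, and for Ehhadh, at 2.52 against 4.15 to 4.41. In Cre cells with TGF-beta it was lowest for Cpt1c, at 40.0 CPM against 50.8 to 52.8, and for Ehhadh, at 2.49 against 3.66 to 3.84. Preparation 2 supplied the others, both high. Acot2 had 22.9 CPM in GFP cells with TGF-beta against 11.9 to 13.6, and Acads had 38.4 CPM in GFP cells against 28.4 to 29.5.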

How the results depend on the processing

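Over 29 settings and 165 combinations of a member and a comparison, no called difference turned round. Of 4739 values, 4582 kept their side of the threshold, 100 dropped below it and 57 passed it. These values include the comparisons of Cre with GFP cells and of their responses, where there was no call to lose. Of the members called with TGF-beta, 5 of 13 in Cre cells and 5 of 14 in GFP cells held their call in every setting. The calls of Acot1, Cpt1a, Pdk4 and Ucp2 in both kinds of cell, of Acot2 in GFP cells and of Acadl in Cre cells held in all settings run. DESeq2 changed no member's call. A prior count of 2 alters the fitted differences and not their p-values, so it could not change a call.

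The preparation block raised the numbers of genes called. With it, in Cre cells 6 members rose and 16 fell with TGF-beta, and 3856 and 4174 of all genes did. In GFP cells 3451 and 4047 of all genes rose and fell. Between Cre and GFP cells 10 genes were higher with TGF-beta, and 25 were higher and 1 lower without it. With the block and without preparation 3, these Cre cell values were 5 members and 3390 genes higher, and 3 genes were higher in Cre than GFP cells with TGF-beta. With the block and without preparation 4, 5 members rose and 16 fell in Cre cells with TGF-beta, among 4251 and 4335 genes, and 3847 and 4204 genes rose and fell in GFP cells. Between Cre and GFP cells 1 member and 224 genes were then higher and 8 lower with TGF-beta, and 103 higher and 11 lower without it. Over the 4 preparations left out in turn with the block, counts ran from 4 to 5 members higher and 11 to 16 lower in Cre cells, and 4 to 6 and 11 to 13 in GFP cells. Over all genes they ran from 2892 to 4251 and 3396 to 4335 in Cre cells, and 2571 to 3847 and 3148 to 4204 in GFP cells. Between Cre and GFP cells they ran from 0 to 224 higher and 0 to 8 lower with TGF-beta, and 0 to 103 and 0 to 11 without it.

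With 1 library left out and no block, 0 to 4 members rose and 6 to 10 fell in Cre cells, and 1 to 4 and 4 to 10 in GFP cells. All genes gave 1466 to 2312 and 2006 to 2665 in Cre cells and 1536 to 2502 and 1825 to 2690 in GFP cells, and 0 to 0 in the comparisons of viruses. Without a filter on low counts 1 member rose in each kind of cell. With neither the block nor preparation 4, 17 genes were higher in Cre than GFP cells without TGF-beta, and DESeq2 called 3. The cause of these changes was not tested, and the part of the smaller number of libraries was not told apart. Depth limits Ppara (0 to 34 counts), and preparation 4 differed from the other 3 in Acsl4, whose interval was wide.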
